A study of Vitis vinifera with 6 samples.

Results

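A set of 5 genes of vacuolar acidification and organic acid transport was followed in leaves of grapevine (*Vitis vinifera*) cv. Sultana, out of 34369 genes with 1 probe each on the array. They were taken by identifier, as the pumps that the study follows as known WRKY targets and the acid carriers that it lists as up-regulated on these arrays. They were *PH5* (VIT_09s0002g00130), *PH1* under the identifiers VIT_00s0477g00070 and VIT_07s0191g00260, both of which the study gives for that pump, *ALMT9* (VIT_02s0025g00700) and a dicarboxylate/tricarboxylate carrier, *DTC* (VIT_00s0827g00020). The 35S:VvWRKY26 group held 3 lines of in vitro plantlets that were vacuum infiltrated at an age of 5 weeks with *Agrobacterium tumefaciens* strain C58C1 carrying *VvWRKY26* behind the constitutive 35S promoter. The control group held 3 lines treated alike with bacteria carrying vector pK7WG2.0 and a non-coding sequence, although the labels call them wild type. Both groups thus carried bacteria, and expression was transient. Of 6 plantlets per construct, 3 lines were used, which the study selected for high *VvWRKY26* expression with the construct and low expression in the control. Young leaves were taken 6 days later, with 1 line on each of 6 single-color arrays.

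A plant vacuole is acidified by pumps in its membrane, the tonoplast. The V-ATPase, a large complex of many subunits, and the V-PPase are its general proton pumps. In petunia petals a P3A-type proton pump, PH5, works together with a P3B-type ATPase, PH1, to make the vacuole more acidic than the V-ATPase alone does, and the Arabidopsis relative of PH5 drives uptake of proanthocyanidin precursors in the seed coat. The proton gradient and the membrane voltage in turn pull organic acids into the vacuole, among other ways through ALMT channels such as ALMT9, which carry malate. Dicarboxylate/tricarboxylate carriers exchange malate, citrate and related acids across the inner membrane of mitochondria. In petunia the WRKY factor PH3, the counterpart of VvWRKY26, controls *PH1* and *PH5*, so the comparison asks whether the same pumps and these carriers move when *VvWRKY26* is over-expressed in grapevine leaves. The study followed *PH5* and *PH1* because of this control in petunia. It also found both in a co-expression database of public grapevine arrays, queried with *VvWRKY26*. For the Sultana plantlets it reports, from microarray and qPCR, no induction of *PH1* and only a weak increase of *PH5*. The carriers *ALMT9* and *DTC* come from its list of genes past a fold change and test threshold on these very arrays. Their rise there is thus a description and not independent evidence. In the authors' normalized values 35S:VvWRKY26 replicate 2 is the mean of replicates 1 and 3. The selection therefore appears to rest on replicates 1 and 3 of that group, which the study does not state.

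The arrays were read in 3 scans, each with 1 array per group. Scan 1 held 35S:VvWRKY26 replicate 1 and control replicate 1, scan 2 held 35S:VvWRKY26 replicate 3 and control replicate 2, and scan 3 held 35S:VvWRKY26 replicate 2 and control replicate 3. All 35S:VvWRKY26 arrays lay at position 4 of their slide and all control arrays at position 1, as the file headers give them, so position and construct cannot be told apart. The headers give 35S:VvWRKY26 replicates 1 and 3 the same slide and position, and likewise control replicates 1 and 2, although each of these arrays came from a different scan, so the slide field is not reliable. Between 73.9% and 94.9% of the gene probes were well above background, and the arrays of scan 2 had the highest shares, 94.9% for 35S:VvWRKY26 and 94.7% for the control. The scanner software's multiplicative spatial correction was applied on 5 arrays, but not on 35S:VvWRKY26 replicate 2. All 7 leaf markers looked at, genes of the photosystems and of chlorophyll synthesis, were well above background on all 6 arrays. Levels below, called scaled levels, are log2 intensities from which the array's own 75th percentile was taken off, and fold changes are 35S:VvWRKY26 over control. In limma 0 of 34369 genes passed an adjusted p of 0.05 (0% of genes), with 186 higher (0.541%) and 169 lower (0.492%) at an unadjusted p under 0.05, and no member passed the adjusted threshold. Where a fold change did not pass, the values and their interval are given without a verdict that the groups were alike. Precision is limited by the number of arrays, and with 3 arrays per group an exact permutation test cannot give a two-sided p below 0.1. Labels call the plantlets lines, so the spread is that between lines of 1 transient experiment.

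The targeted gene *VvWRKY26* (VIT_08s0040g03070) had intensities of 15626, 11039 and 14312 in 35S:VvWRKY26 replicates 1 to 3, against 14037, 10126 and 4736 in control replicates 1 to 3. The unscaled intensities of the groups overlapped, whereas after scaling each over-expressing line (3.40, 3.69 and 3.32) lay above each control line (3.12, 3.25 and 2.57). The study reports over-expression by RT-PCR and qPCR and selected the lines by their *VvWRKY26* level. A separation of the groups in this gene is thus favored by that selection and is no independent evidence. The log2 fold change was 0.49 (standard error, SE, of 0.34, adjusted p = 0.999983 in limma), a factor of 1.40. The lowest control, replicate 3, lay in scan 3, where the difference was 1.12, against 0.28 in scan 1 and 0.07 in scan 2. The probe was bright in the control leaves too, at 301 to 447 times the local background. Before the spatial correction, which was not applied to 35S:VvWRKY26 replicate 2, scaled levels were 3.55, 3.50 and 3.49 in 35S:VvWRKY26 replicates 1 to 3, against 3.28, 3.56 and 3.10 in control replicates 1 to 3. Control replicate 2 was then the highest array, the groups overlapped, and the log2 fold change was 0.20, with -0.07 in scan 2. Whether the probe lies within the sequence that the construct carries is not given in the sources used here.

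**Figure D1:**
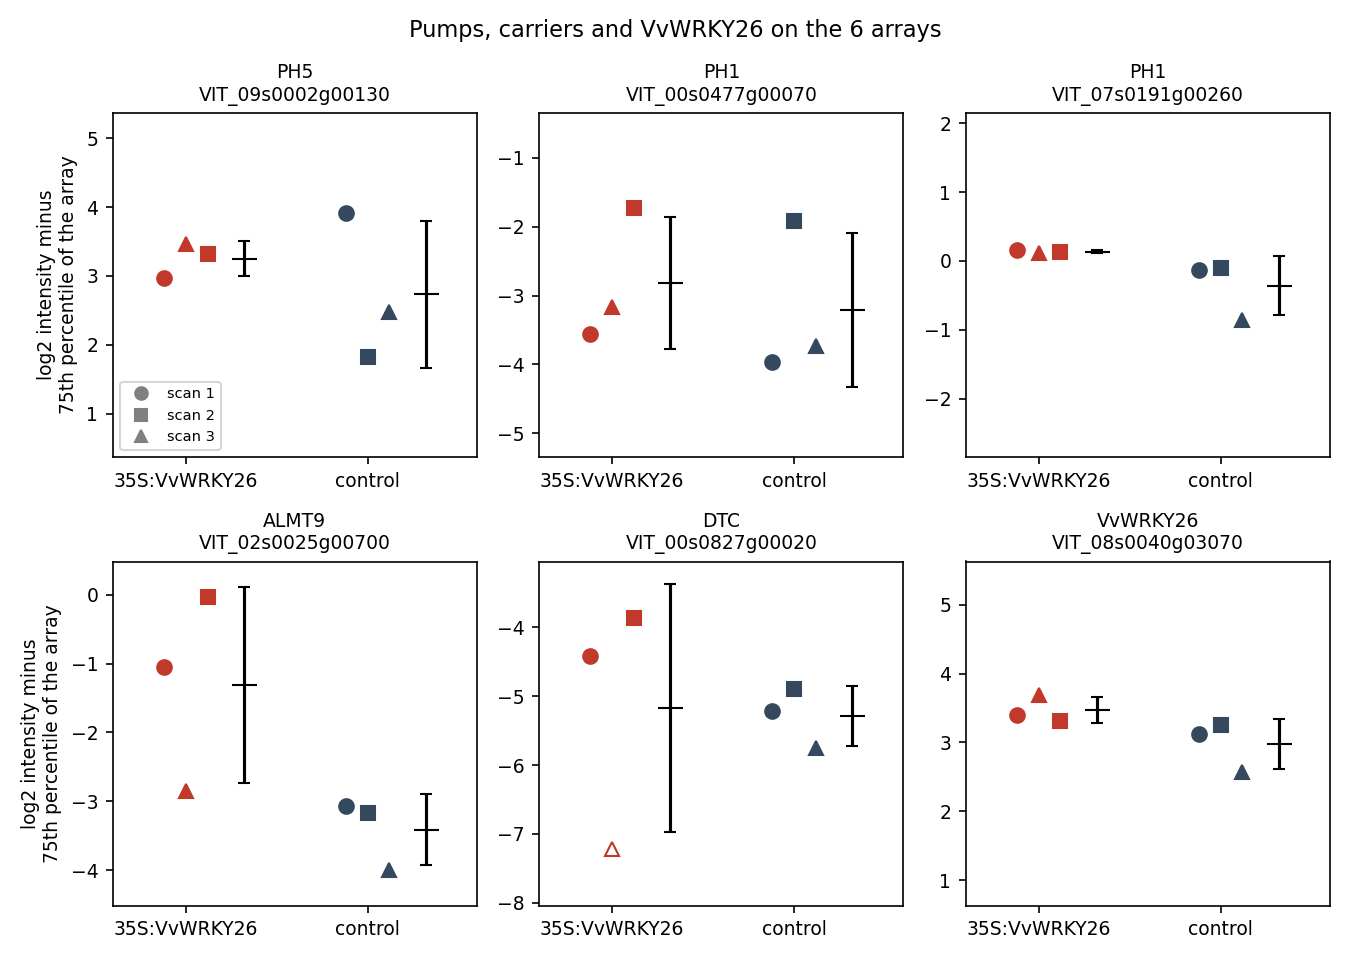
Scaled levels of the 5 pump and carrier genes and of VvWRKY26, given on a log2 scale relative to the 75th percentile of each array, with 35S:VvWRKY26 on the left and control on the right of each panel, 1 point per array, the shape marking the scan and black bars the mean and SD. The open point is DTC on the single array where it was not well above background; PH5 is highest in control replicate 1, while the ALMT9 points of 35S:VvWRKY26 all lie above those of the control.

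*PH5*, the P3A proton pump, was bright in both groups. Its intensity was 11580, 9506 and 14319 in 35S:VvWRKY26 replicates 1 to 3, against 24233, 3773 and 4428 in control replicates 1 to 3. The over-expressing lines lay close together, while the controls held both the highest array of all, replicate 1, and the 2 lowest. Scaled levels averaged 3.25 ± 0.26 in 35S:VvWRKY26 leaves and 2.74 ± 1.07 in control leaves (SD, 3 arrays each). The log2 fold change was 0.52 (SE 0.59, 95% interval -0.94 to 1.97), with an adjusted p of 0.999983 in limma and an exact permutation p of 0.5. Within scans 2 and 3 the 35S:VvWRKY26 line was higher, by 1.49 and 1.00 on the log2 scale, whereas within scan 1 the difference was -0.94. The value rested on single controls, being 1.11 without control replicate 1 and 0.06 without control replicate 2. The controls spanned a factor of 4.23 in scaled level, a range at least as wide as which was seen for 35.6% of genes.

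The same control arrays differed in the leaf markers. The mean scaled level of the 6 markers measured on all arrays was 4.69, 4.41 and 5.26 in 35S:VvWRKY26 replicates 1 to 3, against 5.75, 3.70 and 4.04 in control replicates 1 to 3. All 7 markers were highest in control replicate 1, where *PH5* was highest too. Each was lowest in control replicate 2 or 3, apart from *CRD1*, a chlorophyll synthesis enzyme, which was lowest in 35S:VvWRKY26 replicate 2, and 1 marker was missing in control replicate 3 as an outlier spot. Summed over those 6 markers, intensities were 276 to 330 times the array's 75th percentile in 35S:VvWRKY26 leaves and 234 to 423 times in control leaves, and 0 markers were dim. Their part in the level of *PH5* was not tested. In bulk leaf RNA, fewer cells of a type and less RNA per cell cannot be told apart.

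The value of *PH5* depended on which deposited file was read. In the normalized table of the authors, 5 columns are the scanner intensity times 1 factor per array (0.849 to 1.72), and *PH5* in control replicate 1 was the only one of their values off that factor (tolerance 0.2% or 0.02 units). There the table lists 6229, which equals the mean of control replicates 2 and 3 (4862 and 7596), where the scanner intensity times the factor gives 20583. The remaining column, 35S:VvWRKY26 replicate 2, is the mean of replicates 1 and 3 in all 34369 rows and is no measurement of its own. On the other 5 arrays the log2 fold change of *PH5* was 0.98 from the table and 0.41 from the scanner intensities. How that entry came about is not given in the sources used here.

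**Figure D2:**
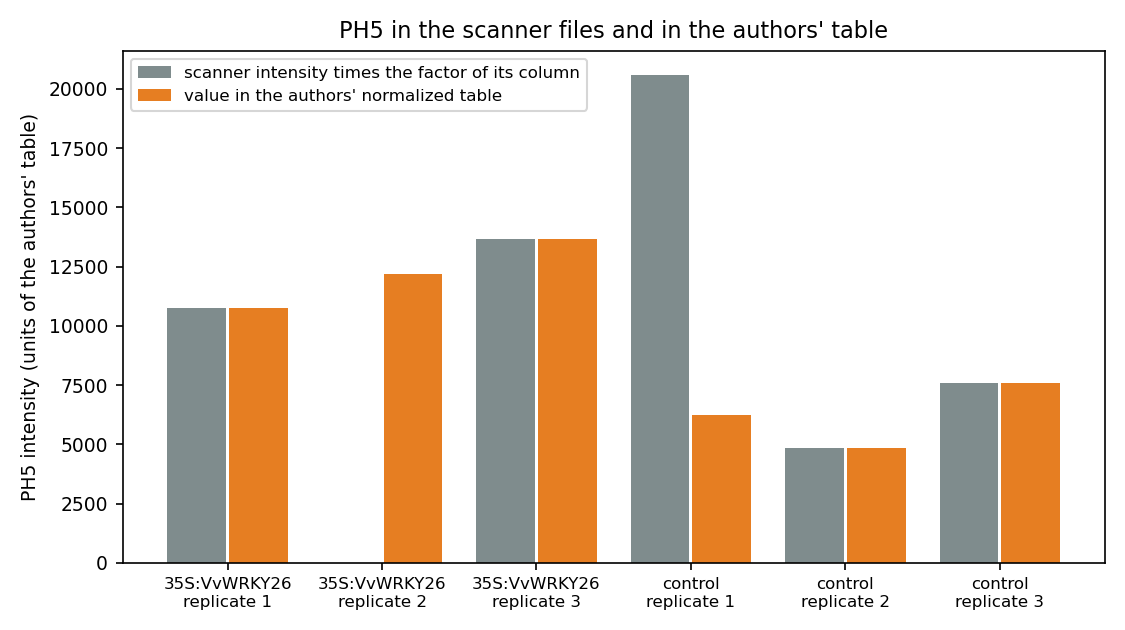
PH5 intensity by array, in the units of the authors' normalized table, with scanner intensity times the column's factor in grey and the listed value in orange. The bars are equal except in control replicate 1, at 20583 from the scanner and 6229 in the table; 35S:VvWRKY26 replicate 2 has no grey bar because its column holds the mean of the other two.

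The P3B-type ATPase *PH1* was read by 2 probes, which are kept apart because no probe sequence was at hand to say whether they read 1 transcript or 2. For VIT_00s0477g00070 the intensity was 125, 95.6 and 432 in 35S:VvWRKY26 replicates 1 to 3, against 103, 281 and 59.9 in control replicates 1 to 3. The array of scan 2 was the highest in each group, and the groups overlapped throughout. This spot was dim, with a median between 1.55 and 9.75 times its local background, although it was marked well above background on all 6 arrays. The lowest of these ratios belonged to 35S:VvWRKY26 replicate 3, its brightest array, where the local background was 277 against 22 to 34 on the other 5 arrays and carried the software's outlier mark. Scaled levels averaged -2.82 ± 0.96 in 35S:VvWRKY26 leaves and -3.21 ± 1.12 in control leaves (SD, 3 arrays each). The log2 fold change was 0.39 (SE 0.76, adjusted p = 0.999983 in limma), with an exact permutation p of 0.5. Within the scans the difference was 0.40, 0.19 and 0.57, and with scan as a block the standard error was 0.28 and the adjusted p 0.88387 in limma. Without 35S:VvWRKY26 replicate 3, the array with the marked spot, the log2 fold change was -0.16, so the direction was not settled.

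For VIT_07s0191g00260 the intensity was 1644, 924 and 1573 in 35S:VvWRKY26 replicates 1 to 3, against 1474, 991 and 441 in control replicates 1 to 3. Scaled levels were 0.16, 0.11 and 0.13 in 35S:VvWRKY26 leaves, against -0.13, -0.10 and -0.86 in control leaves. The over-expressing lines were nearly level and all above the controls, among which replicate 3 stood lowest. The log2 fold change was 0.50 (SE 0.35, 95% interval -0.36 to 1.35, adjusted p = 0.999983 in limma), a factor of 1.41, and the exact permutation p was 0.1. Groups without overlap and higher in 35S:VvWRKY26 were found for 2.43% of 34084 genes measured on all arrays. Without control replicate 3 the log2 fold change was 0.25. The spot lies near the edge of the array, in column 83 of 85, and in control replicate 3 the spatial correction multiplied it by 1.87, against 0.95 to 1.03 on the other arrays, a factor reached by 8.21% of probes on that array. Before that correction its signal there was 235, and the log2 fold change was 0.71 over all arrays, but 35S:VvWRKY26 replicate 2 (-0.08) then lay below control replicate 2 (-0.03), so the groups overlapped.

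*ALMT9*, the malate channel, had the largest fold change of the 5 genes. Its intensity was 714, 119 and 1408 in 35S:VvWRKY26 replicates 1 to 3, against 192, 119 and 49.7 in control replicates 1 to 3. The spot was dim in the controls, with a median 5.43 to 6.89 times its local background, and in 35S:VvWRKY26 replicate 2, at 7.33 times. In 35S:VvWRKY26 replicates 1 and 3 it was at 23.4 and 53.6 times. Replicates 1 and 3 of 35S:VvWRKY26, the arrays of that group on which the choice of the gene appears to rest, stood far above all others. Replicate 2, whose own values appear to have had no part in that choice, was as bright as control replicate 2 before scaling. After scaling it was at -2.85 against -3.07, -3.16 and -4.01 in control replicates 1 to 3. Scaled levels averaged -1.31 ± 1.43 in 35S:VvWRKY26 leaves and -3.41 ± 0.51 in control leaves (SD, 3 arrays each), without overlap. The log2 fold change was 2.10 (SE 0.77, 95% interval 0.20 to 4.01), a factor of 4.30, with an unadjusted p of 0.0355 and an adjusted p of 0.999983 in limma. On all genes, 0.541% were higher at an unadjusted p under 0.05. Within scans 1, 2 and 3 the line with the construct was higher by 2.02, 3.14 and 1.16 on the log2 scale, where 11.6% of genes were higher in all 3 scans. With scan as a block the standard error was 0.45 and the adjusted p 0.876185 in limma. Its unadjusted p of 0.00507 there was the only one of the 5 members under 0.05, where 1.71% of all genes were so and higher. Because *ALMT9* was picked for its rise on these arrays, its p-values and within-scan differences were favored by that choice. They are a description and not independent evidence, and the shares of all genes are no measure of it. Over the 5 arrays without 35S:VvWRKY26 replicate 2 the log2 fold change was 2.87, and without replicate 3 it was 1.46. Under the normexp background correction, over all 6 arrays, it was 1.22.

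*DTC* lay near the limit of detection. Its intensity was 69.4, 5.74 and 98.5 in 35S:VvWRKY26 replicates 1 to 3, against 43.3, 35.8 and 14.8 in control replicates 1 to 3. Replicates 1 and 3 of 35S:VvWRKY26 were the highest arrays and replicate 2 the lowest, and on this last array the spot was not well above background, so 2 of the 3 arrays of the group measured it. The spot median was 2.04 to 6.35 times the local background in 35S:VvWRKY26 leaves and 2.74 to 3.94 times in control leaves. Scaled levels averaged -5.17 ± 1.80 in 35S:VvWRKY26 leaves and -5.29 ± 0.44 in control leaves (SD, 3 arrays each). The log2 fold change was 0.12 (SE 0.93, 95% interval -2.15 to 2.40, adjusted p = 0.999983 in limma), and the exact permutation p was 1. It was 1.15 over the 5 arrays on which the study's selection appears to rest, and 0.54 when the dim spot was set to the lowest signal measured on its array. Within scans 1 and 2 the 35S:VvWRKY26 line was higher, by 0.81 and 1.03, while in scan 3, with the dim spot, the difference was -1.47.

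**Figure D3:**
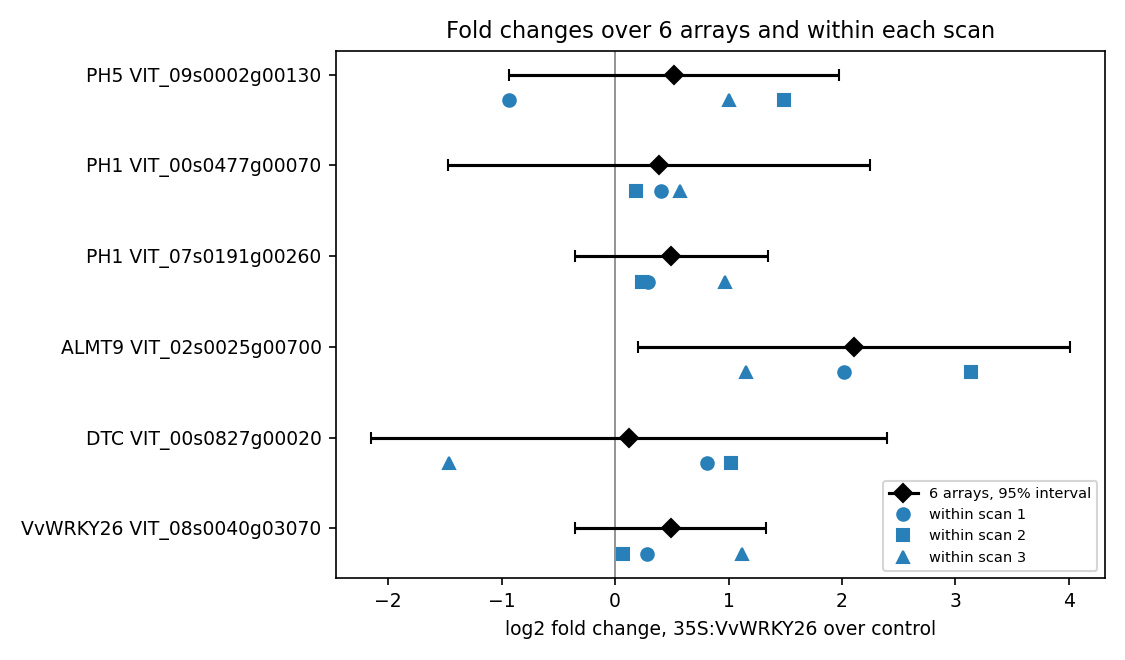
log2 fold changes, 35S:VvWRKY26 over control, of the pumps, the carriers and VvWRKY26, with black diamonds and bars for 6 arrays with the 95% interval of limma, and blue points for the difference within each scan. The interval of ALMT9 starts at 0.20 and those of the other genes cross 0. Of the 5 members 3 (both PH1 probes and ALMT9, which was picked for its rise) are higher in all 3 scans, as are 11.6% of all genes measured on all arrays.

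Of the 3 pump probes, *PH5* and both of *PH1*, each log2 fold change was above 0, where 44.6% of all genes were. So were *ALMT9* and *DTC*, which had been picked for being higher on these arrays, and the median over the 5 was 0.50 against -0.05 over all genes, from which nothing is read for that reason. Groups did not overlap for *ALMT9*, picked for its rise, and for VIT_07s0191g00260, where 2.43% of genes were so and higher. The direction of VIT_00s0477g00070 and *DTC* turned under the normexp background correction, to -0.41 and -0.24, a correction that put the median of all genes at -0.33. Relative to that median VIT_00s0477g00070 was thus slightly lower and *DTC* slightly higher. *PH5* at 0.27, VIT_07s0191g00260 at 0.59 and *ALMT9* at 1.22 stayed above 0 under this correction.

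The members varied loosely with each other over the 6 arrays. Of 10 pairs of members 8 had a positive Pearson's r, which ranged from -0.39 to 0.71. None of the 15 relations tested, these 10 and the 5 with *VvWRKY26*, passed a Benjamini-Hochberg adjusted p of 0.05, where exact permutation tests of r over 720 pairings gave 1 unadjusted p below 0.05 and a smallest adjusted p of 0.208. The highest pair of members was VIT_07s0191g00260 with *ALMT9*, at r = 0.71 and Spearman's rho = 0.89 (exact permutation p = 0.0806 and 0.0333, adjusted 0.604 and 0.4375), and r was 0.69 without the 2 arrays farthest from the median of the *PH1* probe. With group means taken out it was 0.37. The pump pair *PH5* and VIT_07s0191g00260 gave r = 0.38 and rho = 0.09 (exact permutation p = 0.4625 and 0.919, adjusted 0.700 and 0.919), with r = 0.86 without control replicates 1 and 2, the arrays farthest out for *PH5*. *PH5* with the other *PH1* probe, VIT_00s0477g00070, gave r = -0.39 and rho = -0.31 (exact permutation p = 0.435 and 0.564, adjusted 0.700 and 0.769), and r = 0.61 without the same arrays, so the sign rested on them.

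The 2 *PH1* probes gave r = 0.38 and rho = 0.54 with each other (exact permutation p = 0.547 and 0.297, adjusted 0.700 and 0.593). After the mean of each scan was taken out, r between them was 0.95, though this leaves just 3 differences between arrays. *ALMT9* and *DTC* gave r = 0.66 and rho = 0.60 (exact permutation p = 0.147 and 0.242, adjusted 0.700 and 0.593). Here r was -0.27 without 35S:VvWRKY26 replicates 1 and 3, the arrays of that group on which the selection of both genes appears to rest. With group means taken out r was 0.96, with the dim spot of *DTC* at the lowest measured signal 0.87, and with scan means taken out 0.41. *VvWRKY26* was closest to VIT_07s0191g00260, with r = 0.93 and rho = 0.83 (exact permutation p = 0.0139 and 0.0583, adjusted 0.208 and 0.4375). There r was 0.89 without control replicate 3 and 35S:VvWRKY26 replicate 2, 0.85 with group means taken out and 0.98 with scan means taken out, and 0.62 under the normexp correction, the lowest of the alternatives. With *PH5*, VIT_00s0477g00070, *ALMT9* and *DTC* the r of *VvWRKY26* was 0.33, 0.31, 0.48 and -0.14. Because the lines had been selected by *VvWRKY26* level, the part of these relations that lies between the groups is not free of that selection.

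**Figure D4:**
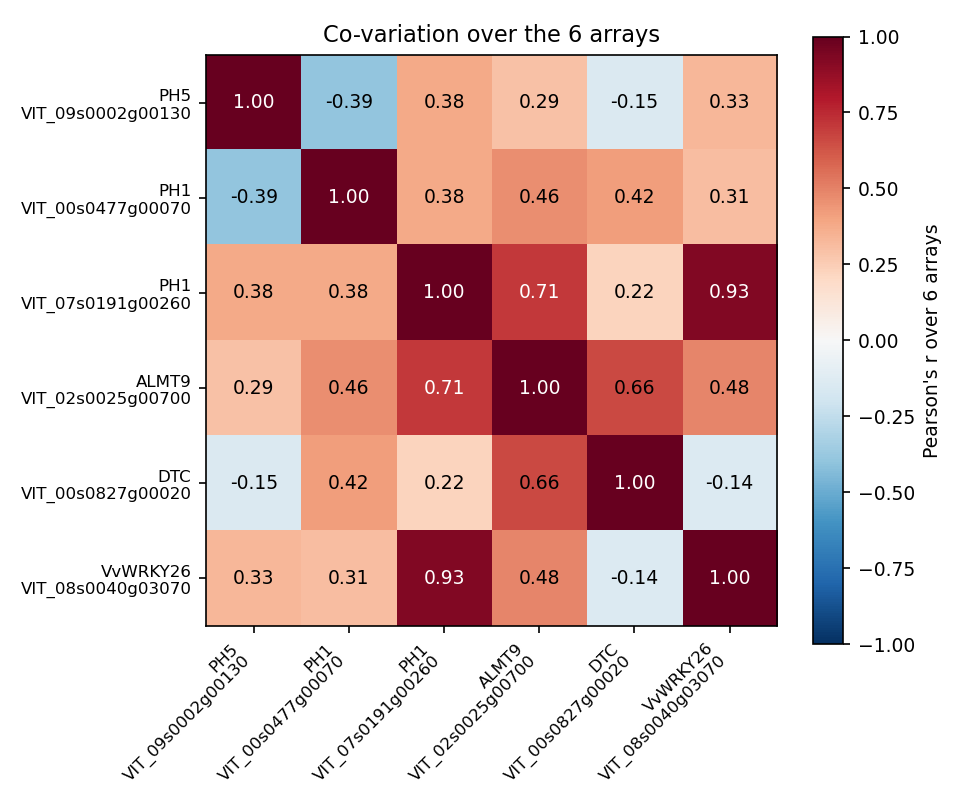
Pearson's r between the scaled levels of the pumps, the carriers and VvWRKY26 over the 6 arrays, on a color scale from -1 to 1. The highest r is 0.93, between VvWRKY26 and the PH1 probe VIT_07s0191g00260, and the lowest is -0.39, between PH5 and the PH1 probe VIT_00s0477g00070.

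To describe each pattern further, the 3 genes most like each member were sought among 1304 annotated genes well above background on all arrays. The annotation at hand covers a part of the genome, mostly genes not placed on a chromosome, so closer genes may exist. It comes from the study's own lists and includes genes listed for being up-regulated on these arrays. For *PH5* these were an NPH3 phototropic-response protein (VIT_00s0361g00090), a phospholipase D delta (VIT_00s0264g00100) and a Spinster-type transporter of the major facilitator family (VIT_00s0282g00040), with r from 0.96 to 0.97. For VIT_00s0477g00070 they were a lectin protein kinase (VIT_00s0346g00010), a DnaJ homolog (VIT_00s0252g00060) and a PIG-O protein (VIT_00s0407g00070), each at r = 0.99. For VIT_07s0191g00260 they were a forkhead-associated domain protein (VIT_00s0184g00030), a 1,3-beta-glucan synthase (VIT_00s0265g00050) and a strictosidine synthase (VIT_08s0007g05360), with r from 0.95 to 0.97. For *ALMT9* they were an ABC transporter (VIT_01s0011g04670), an MLA10-type resistance protein (VIT_00s0144g00040) and ACR6, an ACT domain protein (VIT_03s0091g00070), each at r = 0.99. For *DTC* they were an IMP dehydrogenase (VIT_00s0269g00050), a riboflavin kinase (VIT_00s0181g00130) and a TIR-NBS-LRR protein (VIT_00s0413g00020), with r from 0.95 to 0.99. Between 1.15% and 3.45% of the genes compared had an r of at least 0.9 with a given member. The ABC transporter and the strictosidine synthase are, as *ALMT9* is, among the genes that the study lists as up-regulated here. Likeness between genes of that list was partly fixed by their selection, and nothing is read from it.

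Other genes of acidification and acid transport came from lists that hold what the study's tables annotate, and families such as the V-ATPase are thus incomplete. Of 3 V-ATPase probes, subunit H (VIT_00s0187g00270 and VIT_00s0187g00310) had log2 fold changes of -0.36 and 0.28 (SE 0.57 and 0.59) and subunit G (VIT_00s0288g00050) of -0.55 (SE 0.88). The subunit G probe was not well above background on 1 array. A tonoplast dicarboxylate transporter (VIT_00s0187g00130), the carrier that moves malate over the vacuolar membrane, was at 0.08 (SE 0.33). Its scaled level was 2.08, 1.47 and 1.54 in 35S:VvWRKY26 replicates 1 to 3, against 1.76, 1.53 and 1.56 in control replicates 1 to 3, so the groups overlapped. Another *DTC* gene, VIT_00s0188g00090, was at -0.18 (SE 0.80), and 2 probes of mitochondrial 2-oxoglutarate/malate carriers were at 0.08 (VIT_00s0407g00020) and 0.54 (VIT_00s0199g00050), and this last probe was well above background on 2 of 6 arrays.

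Of 4 potassium and sodium carriers, among them exchangers that trade cations for protons, 3 had a log2 fold change above 0 and 1 below. *NHX1* (VIT_14s0128g00020) was at 0.29, *KEA3* (VIT_00s0282g00020) at 0.19, *KUP6* (VIT_14s0066g01580) at 0.00075 and *KUP1* (VIT_00s0125g00190) at -0.66, with standard errors of 0.35 to 0.57. Of 5 other P-type ATPases 1 was higher and 4 lower, between a phospholipid-transporting ATPase (VIT_00s0125g00410) at -1.10 and another (VIT_00s0189g00030) at 0.09, where the first of these was well above background on 3 arrays. Of 6 enzymes of organic acids 2 were higher and 4 lower, with a succinate dehydrogenase (VIT_00s0304g00040) at -0.59 and an NADP-malic enzyme (VIT_00s0183g00140) at 0.25 as the extremes, both dim on some arrays. Of 6 other vacuole genes 5 were higher and 1 lower, from the vacuolar invertase *GIN2* (VIT_02s0154g00090) at -0.67 to the sorting protein *VPS41* (VIT_00s0233g00090) at 0.56.

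Of the 21 other transport genes taken from that co-expression database, 14 were higher and 7 lower, with a median of 0.03, where 44.6% of all genes were higher. The extremes were *ANM1* (VIT_08s0007g03570) at 0.75 (SE 0.30) and *APE2* (VIT_01s0011g00600) at -0.67 (SE 0.35). *ANM1* was higher in each scan and *APE2* lower in each. Over the 7 lists, which share *NHX1*, *KEA3* and *KUP6*, 26 of 46 genes were higher and 20 lower, against the same 44.6% of all genes higher. The median was 0.01 against -0.05 over all genes. Under the normexp correction, with its median of -0.33 over all genes, 14 of 46 were higher, among them 0 of 3 V-ATPase probes, 1 of 4 acid carriers, 1 of 6 acid enzymes and 1 of 6 other vacuole genes. In limma 0 of 46 passed the adjusted threshold, and 1 of them, *ANM1*, was higher at an unadjusted p under 0.05, where 0.541% of all genes were. Groups did not overlap for 2 of 46 that were higher and 1 that was lower, against 2.43% and 2.26% of all genes. Of the 6 regulators listed, which the study named from these arrays in part, *MYBPA1* (VIT_15s0046g00170), a MYB activator of proanthocyanidin synthesis, was the highest at 2.86 (SE 0.57) and *MYC1* (VIT_07s0104g00090), a bHLH factor, the lowest at 0.15 (SE 0.31).

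**Figure D5:**
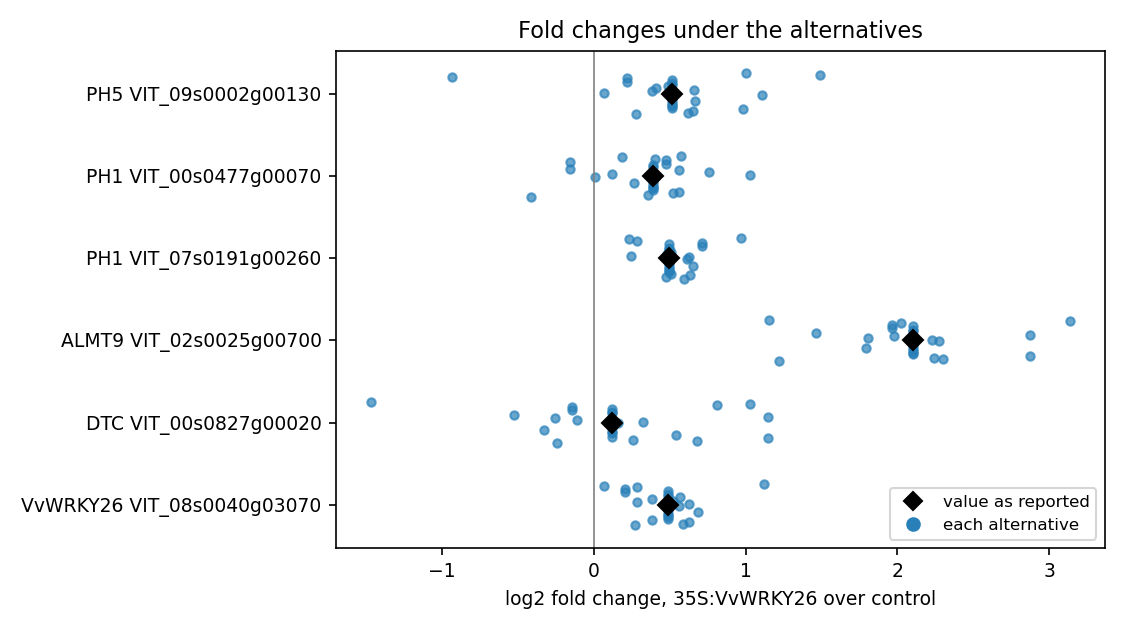
log2 fold changes, 35S:VvWRKY26 over control, of the pumps, the carriers and VvWRKY26 under 26 alternatives each, with black diamonds for the values reported and blue points for each alternative. All points of ALMT9, VvWRKY26 and the PH1 probe VIT_07s0191g00260 lie above 0, while 1 of PH5, 3 of VIT_00s0477g00070 and 8 of DTC lie below. Alternatives that change only the error, such as the blocks, repeat the estimate by design.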

How the data were processed

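For each array the authors deposited Feature Extraction 10.5.1.1 output, in which the processed signal is an intensity after background subtraction and spatial detrending, with marks for outlier and well measured spots. They also deposited a table of normalized intensity on a linear scale, scaled to the 75th percentile, which served as an alternative. The header names Genoscope gene models, and no coordinates or sequences were at hand for these identifiers (0 of 5 matched the reference table).

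From these, log2 processed signal minus each array's 75th percentile was computed over 34369 gene probes, leaving out 1417 control spots and setting outlier spots to missing, of which no member had any. Groups were compared in limma 3.58.1 (lmFit, eBayes, R 4.3.3) without covariates, two-sided, with Benjamini-Hochberg adjustment over all genes at 0.05, on 4 residual and 1.88 prior degrees of freedom. This step was also run on simulated data with known changes, and no result above rests on that run. Exact permutation tests, two-sided, used SciPy 1.17.1 on NumPy 2.4.6, tables pandas 2.3.3 and figures matplotlib 3.10.9. A scan is a scan time in the file header. Named were the 5 members, *VvWRKY26*, all V-ATPase, acid carrier and cation exchange genes listed, the extremes of other lists, and the 3 most alike genes per member. Members, lists and tests were chosen with earlier results of these data known. Alternatives were normexp (offset 50, median pixel intensity), quantile or no scaling, the authors' table, treatments of dim and outlier spots, an intensity trend, array weights, blocks, each array left out and the methods' t-test. Background-subtracted signal, with and without the scan block, and missing background outliers were added after seeing the data.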

Additional observations from a re-analysis of the deposited data

How the results depend on the processing

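In limma 0 genes passed an adjusted p of 0.05 under every alternative run, at 145 to 1861 genes with an unadjusted p under 0.05, and adjusted p of the members stayed between 0.85 and 1.00. Of 26 alternatives each, 26 kept the direction for VIT_07s0191g00260 (0.23 to 0.97), *ALMT9* (1.16 to 3.14) and *VvWRKY26* (0.07 to 1.12), 25 for *PH5*, 23 for VIT_00s0477g00070 and 18 for *DTC*. These counts include settings that could not move the estimate. The intensity trend, the blocks and the methods' t-test change only its error in this balanced design. Keeping outlier spots or dropping dim probes left every member's values as they were. *PH5* turned within scan 1 (-0.94). VIT_00s0477g00070 turned under normexp (-0.41) and with background outliers missing (-0.16), and ranged from -0.16 to 1.03 with 1 array left out. *DTC* turned under normexp (-0.24), array weights (-0.33), background-subtracted signal with or without scan as a block (-0.14) and within scan 3 (-1.47), and ranged from -0.53 to 1.15 with 1 array left out. The cause of these turns was not tested. Leaving out 1 array gave 0.06 to 1.11 for *PH5*, 0.25 to 0.63 for VIT_07s0191g00260, 1.46 to 2.87 for *ALMT9* and 0.28 to 0.63 for *VvWRKY26*.

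The replicate block, with 1 array per group under each number, could not move the log2 fold changes. They stayed at 0.52 for *PH5*, 0.39 for VIT_00s0477g00070, 0.50 for VIT_07s0191g00260, 2.10 for *ALMT9*, 0.12 for *DTC* and 0.49 for *VvWRKY26*, with 0 genes past the threshold. Numbers did not pair the arrays, since deviations from the group means correlated at 0.63, -0.28 and -0.41 for numbers 1, 2 and 3, whereas arrays of scans 1, 2 and 3 correlated at 0.63, 0.69 and 0.54. The main comparison and the exact permutation tests did not use the scan. With scan as a block the standard errors were 0.54 for *PH5*, 0.31 for VIT_07s0191g00260, 0.57 for *DTC* and 0.33 for *VvWRKY26*. Without it they were 0.59, 0.35, 0.93 and 0.34. At the methods' t-test *ALMT9* had an unadjusted p of 0.0742 with equal variances, against 0.112 without that assumption (exact permutation p = 0.1).

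None of the correlations had been called, and several changed sign. Without the 2 farthest arrays r was 0.61 for *PH5* with VIT_00s0477g00070, -0.65 for VIT_00s0477g00070 with *DTC*, -0.13 for VIT_07s0191g00260 with *DTC*, -0.27 for *ALMT9* with *DTC*, -0.33 for *VvWRKY26* with *PH5* and 0.75 for *VvWRKY26* with *DTC*. With scan means out it was 0.32 for *PH5* with VIT_00s0477g00070, and -0.23 and -0.47 for *DTC* with VIT_00s0477g00070 and VIT_07s0191g00260. Under normexp it was 0.0105 and 0.57 for *PH5* with VIT_00s0477g00070 and *DTC*, -0.0268 for VIT_00s0477g00070 with *ALMT9*, and -0.27 and -0.37 for *VvWRKY26* with *PH5* and VIT_00s0477g00070. Under quantile normalization it was 0.61 and -0.47 for *DTC* with *PH5* and VIT_00s0477g00070, and 0.11 with *VvWRKY26*. Without scaling it was 0.0631 for *PH5* with VIT_00s0477g00070, and 0.37 and 0.55 for *DTC* with *PH5* and *VvWRKY26*. With the dim spot at the lowest measured signal it was 0.19 for *DTC* with *VvWRKY26*, and with group means out -0.15 for *ALMT9* with *VvWRKY26*. Of the 46 listed genes 14 were higher under normexp.

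The spots of *DTC* and VIT_00s0477g00070 were at most 6.35 and 9.75 times their local background. Those of *ALMT9* were at 5.43 to 6.89 times in the controls and 7.33 times in 35S:VvWRKY26 replicate 2. Slide as a block could not change a direction, since each slide as listed held as many arrays of one group as of the other. The slide field also repeats across scans.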
